A study of Sus scrofa with 10 samples.

Results

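GATA6, NR2F1 and ERG are lineage transcription factors, and each was measured by a single probe set on the Affymetrix porcine array, so that 3 of 24123 probe sets and 3 of 6765 named genes are described here. They were taken by their gene symbol in the array's annotation, and they had been picked with earlier results on the difference between the fractions in view. Their own differences are therefore given as a description with no test. The cells were porcine fetal fibroblasts grown from day 24 fetuses of a Danish Landrace/Yorkshire x Duroc cross, from tissue without the head, and cultured on gelatin with 10% fetal calf serum. They were sorted on magnetic beads for SSEA-1, a Lewis X sugar epitope carried by several embryonic and stem cell types, which gave 5 SSEA-1 positive (SSEA1+) and 5 SSEA-1 negative (SSEA1-) fractions. Both fractions carried replicate numbers 1 to 5, with 1 array per fraction, and all 10 samples shared the same breed, fetal age, tissue and culture. The series text calls them biological replicates and does not say whether they came from separate animals or separate cultures. The p-values below therefore measure only the spread between these samples.

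Transcription factors of this kind bind DNA and set which genes a lineage uses. GATA6 is a zinc finger protein that acts in primitive and definitive endoderm and in the heart and other mesoderm. NR2F1, also called COUP-TFI, is an orphan nuclear receptor that patterns the nervous system and parts of the mesenchyme, mostly by repressing genes, and retinoic acid can induce it. ERG is an ETS family factor that maintains endothelial identity and is also used in cartilage and blood stem cells.

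The arrays gave log2 signals made with RMA, a method that corrects background, normalizes and summarises the probes of a set. Between 69.3% and 72.5% of probe sets lay above a background level of 0.35, the 95th percentile of controls for sequences absent from pig RNA. All 13 measured fibroblast markers lay above it on every array, VIM at 11.25 ± 0.05 in the positive and 11.24 ± 0.02 in the negative fraction (SD, n = 5 each), while COL3A1 was dim at 0.75 ± 0.13 and 0.68 ± 0.10. SSEA-1 is a glycan, so no single transcript on the array checks the sort. Over all probe sets, 1495 passed limma at an adjusted p under 0.05, or 6.20%, and 2832 passed once the replicate number was added as a block. Among genes read by their brightest probe set, 500 of 6765 passed, or 7.39% (14.3% with the block), and the median size of the difference over all of them was 0.11 on the log2 scale. Precision is limited by the number of arrays.

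GATA6 read higher in the SSEA-1 positive fraction in every pair. Its log2 signal was 3.30, 3.07, 3.28, 3.00 and 3.06 in positive replicates 1 to 5. In negative replicates 1 to 5 it was 2.26, 2.29, 2.49, 1.86 and 2.51. All 5 positive arrays lay above all 5 negative ones, with 0.49 between the lowest positive and the highest negative array, and negative replicate 4 was the lowest of the 10. The means were 3.14 ± 0.14 and 2.28 ± 0.26 (SD, n = 5 each), a log2 difference of 0.86 ± 0.12 (SE) or 1.82-fold. The 5 pairs differed by between 0.56 and 1.14, the least in replicate 5 and the most in replicate 4. In RNA from a whole fraction, more cells that use a gene and more RNA per cell cannot be told apart, which holds for all 3 factors.

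NR2F1 also read higher in the positive fraction in every pair, by less. Its log2 signal was 2.21, 2.38, 2.12, 2.11 and 2.26 in positive replicates 1 to 5. In negative replicates 1 to 5 it was 1.81, 1.78, 2.05, 1.79 and 1.86. The fractions did not overlap, but the gap between them was 0.06, since negative replicate 3 lay close to the lowest positive arrays and the other 4 negative arrays lay together. The means were 2.22 ± 0.11 and 1.86 ± 0.11 (SD, n = 5 each), a log2 difference of 0.36 ± 0.08 (SE) or 1.28-fold. The pairs differed by between 0.06 in replicate 3 and 0.59 in replicate 2. Non-overlapping fractions were thus seen for 2 of the 3 factors, GATA6 and NR2F1, and for 8.53% of all genes. The choice of the factors used these values, so nothing is read from that count.

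ERG went the other way and read lower in the positive fraction in every pair. Its log2 signal was 2.71, 3.24, 2.83, 3.06 and 3.09 in positive replicates 1 to 5. In negative replicates 1 to 5 it was 3.28, 3.50, 3.60, 3.19 and 3.44. The fractions overlapped, because positive replicate 2 at 3.24 lay above negative replicate 4 at 3.19. The means were 2.99 ± 0.21 and 3.41 ± 0.17 (SD, n = 5 each), a log2 difference of -0.42 ± 0.11 (SE), or 1.34-fold lower. The pairs differed by between -0.78 in replicate 3 and -0.13 in replicate 4. All 3 factors lay above background on all 10 arrays, and none of them had a second probe set against which its reading could be checked.

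**Figure D1:**
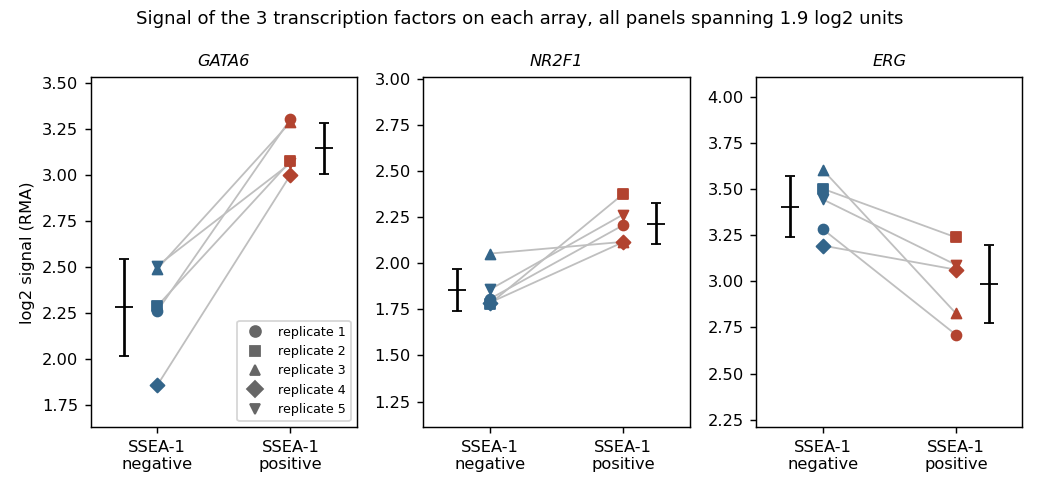
Log2 signal of GATA6, NR2F1 and ERG on each array (points; marker shape gives the replicate number, grey lines join arrays of the same number), with the fraction mean and SD as black bars beside them. GATA6 and NR2F1 lie higher and ERG lies lower in the positive fraction along all 5 lines, and only the ERG fractions overlap.

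The factors differed in how much they varied within a fraction. The pooled SD within fractions was 0.21 for GATA6 and 0.19 for ERG, close to the median of 0.18 for probe sets within 0.25 log2 units of either one's mean. NR2F1 was tighter, with an SD of 0.11, and 9.23% of the 1192 probe sets of like level varied less. The deviations from the fraction means went together most for NR2F1 and ERG, with r = 0.64 and rho = 0.53 over the 10 arrays, although the fractions placed these genes in opposite directions. GATA6 had r = 0.29 with NR2F1 and r = 0.12 with ERG. These correlations describe 10 arrays that share their normalization and their pairs, and they carry no test. Arrays of the same number deviated together for GATA6 (r = 0.47 over the 5 pairs) and in opposite directions for NR2F1 (r = -0.48), with 0.10 for ERG.

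The poly-A spike-in controls, RNAs added before labelling, also differed in level between the fractions. Relative to the hybridisation controls their level read -3.20 ± 0.32 in the positive and -4.02 ± 0.25 in the negative fraction (SD, n = 5 each), with no overlap. An exact two-sided permutation test over all splits of the arrays, which ignored the pairs, gave p = 0.00794. That is the smallest value 5 against 5 arrays can reach without pairing. The hybridisation controls themselves read 6.90 ± 0.16 against 6.48 ± 0.16 (SD, n = 5 each), also with no overlap, and without subtracting them the poly-A level differed by 1.24 rather than 0.82. Within fractions, ERG read lower on arrays with a higher poly-A level (r = -0.60, rho = -0.45), whereas GATA6 gave r = 0.01 and NR2F1 r = -0.23 over the 10 arrays. With the poly-A level as a covariate, the ERG difference was -0.09 ± 0.18, the GATA6 difference 0.86 ± 0.23 and the NR2F1 difference 0.43 ± 0.15 (SE). With the replicate block beside it, ERG read 0.11 ± 0.26, GATA6 1.28 ± 0.26 and NR2F1 0.58 ± 0.26 (SE). Since the poly-A levels of the fractions did not overlap, these values are extrapolated by the model. Of the RNA quality measures, actin gave a log2 difference between its 3' and 5' probe sets of 1.23 ± 0.07 in the positive and 1.28 ± 0.09 in the negative fraction (SD, n = 5 each; exact two-sided permutation p = 0.421).

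**Figure D2:**
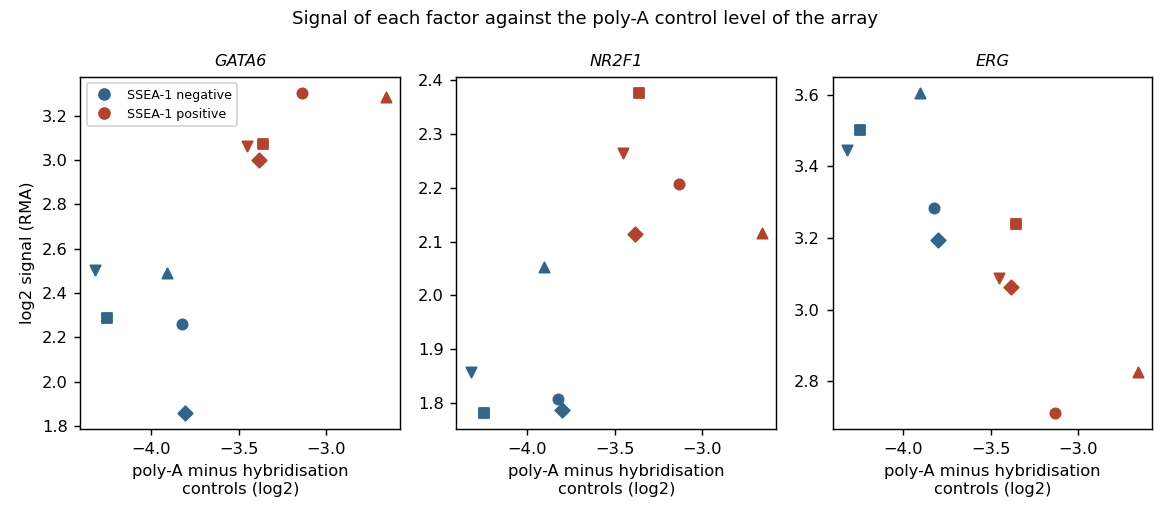
Log2 signal of each factor (vertical axis) against the poly-A control level relative to the hybridisation controls (horizontal axis, log2), 1 point per array, marker shapes giving the replicate number. The positive arrays all lie to the right of the negative ones, and within the fractions ERG tends to be lower further to the right, while GATA6 shows no common slope.

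Among the relatives of GATA6, GATA3 rose with it while GATA2 and GATA4 gave no call. GATA3, a factor of T cells, trophoblast and several epithelia, read 4.92, 4.55, 4.48, 5.00 and 4.76 in positive replicates 1 to 5 and 4.49, 4.15, 4.04, 3.58 and 4.42 in negative replicates 1 to 5. The lowest positive array lay just below the highest negative one, so the fractions overlapped slightly, yet all 5 pairs were higher in the positive fraction. The log2 difference was 0.61 ± 0.16 (SE; limma adjusted p = 0.0411). A further GATA3 probe set also passed, at 0.40 (limma adjusted p = 0.0493), another read 0.40 without passing (0.0827), and the remaining one was near background. GATA2, a factor of blood and endothelium, read 4.02 ± 0.32 against 3.88 ± 0.25 (SD, n = 5 each; adjusted p = 0.685). GATA4, the cardiac and endodermal partner of GATA6, stayed near background at 0.32 ± 0.11 against 0.29 ± 0.23. Within fractions the deviations of GATA3 had r = 0.47 and rho = 0.28 with those of GATA6, as a description of 10 arrays. For GATA2 r was 0.00 and rho -0.07, and for GATA4 r was -0.03 and rho -0.10. Negative replicate 4 was the lowest array for both GATA3 and GATA6. In positive replicate 4, GATA3 read highest and GATA6 lowest of the positive arrays.

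Of the 6 measured members of the list of GATA factors and their cofactors, 2 rose and none fell, where 3.21% of all genes rose and 4.18% fell. The other was LMO4, a LIM-only adaptor protein, at 0.24 ± 0.06 (SE; limma adjusted p = 0.0463). CITED2, a coactivator that binds CBP and p300, read 0.26 ± 0.07 (SE; adjusted p = 0.0514) and passed with the replicate block (0.0342). LMO2, an adaptor of blood and endothelial GATA complexes, read -0.11 without passing. The median of the list was 0.19, against -0.01 over all genes. The GATA3 call ended in 11 of 15 leave-outs, all except those of positive replicates 2 and 3 and negative replicates 1 and 5, with the adjusted p between 0.0510 and 0.102. The LMO4 call ended in 14 of 15, all except that of negative replicate 2, with adjusted p up to 0.204, and with the mean over its probe sets (0.0875). CITED2 passed without positive replicate 2 (0.0477) and without negative replicate 5 (0.0374).

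Within the COUP-TF group, NR2F6 rose and NR2F2 did not pass. NR2F6, a repressor also known as EAR2, read 4.33, 4.16, 4.09, 4.24 and 4.24 in positive replicates 1 to 5. In negative replicates 1 to 5 it read 3.75, 3.79, 3.63, 3.58 and 3.70. The fractions lay well apart, and the log2 difference was 0.52 ± 0.07 (SE; limma adjusted p = 0.00149), a larger difference than that of NR2F1 itself, without a test between them. NR2F2, or COUP-TFII, which shapes veins and mesenchyme, read 5.15 ± 0.16 against 4.97 ± 0.17 (SD, n = 5 each; adjusted p = 0.336), higher in 4 of 5 pairs, and its other probe sets read between 0.03 and 0.22 higher, none of them past the threshold. Within fractions the deviations of NR2F2 had r = -0.52 with those of NR2F1, and those of NR2F6 r = -0.18.

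The wider list of nuclear receptors and their partners had 21 measured members, of which 2 rose and none fell, where 7.39% of all genes passed in either direction, so the count says nothing particular to the list. NCOR1, a corepressor of nuclear receptors, rose by 0.47 ± 0.11 (SE; limma adjusted p = 0.0246), and its second probe set rose by 0.42 (adjusted p = 0.0378), while a dim one read -0.07. NR1H3, the oxysterol receptor LXR alpha, read 0.23 (adjusted p = 0.0833) and RORA, an orphan receptor near background, read 0.19 (0.157). The median was 0.10, with 17 of the 21 reading higher in the positive fraction. The NR2F6 call held in all 15 leave-outs. The NCOR1 call ended without positive replicates 1, 2 or 5, without negative replicate 3 and without the pair of arrays numbered 3 or 5, at adjusted p between 0.0515 and 0.114. It also ended, at 0.0620, with the mean over the probe sets of a gene.

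The retinoic acid list, which holds enzymes, binding proteins and response genes of the signal that can induce NR2F1, gave no call among 6 measured members. At an unadjusted p under 0.05 there were 2. The share of all genes at that unadjusted level was not computed, so nothing is read from such counts here or below. MEIS2, a homeobox cofactor induced by retinoic acid, read 0.30 higher (limma adjusted p = 0.227; 0.0483 without negative replicate 5) and CRABP2, a retinoic acid binding protein, read -0.15 (adjusted p = 0.237). The median of the list was -0.07, and 5 of the 6 read lower in the positive fraction. MEIS1 read -0.06 (adjusted p = 0.739).

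**Figure D3:**
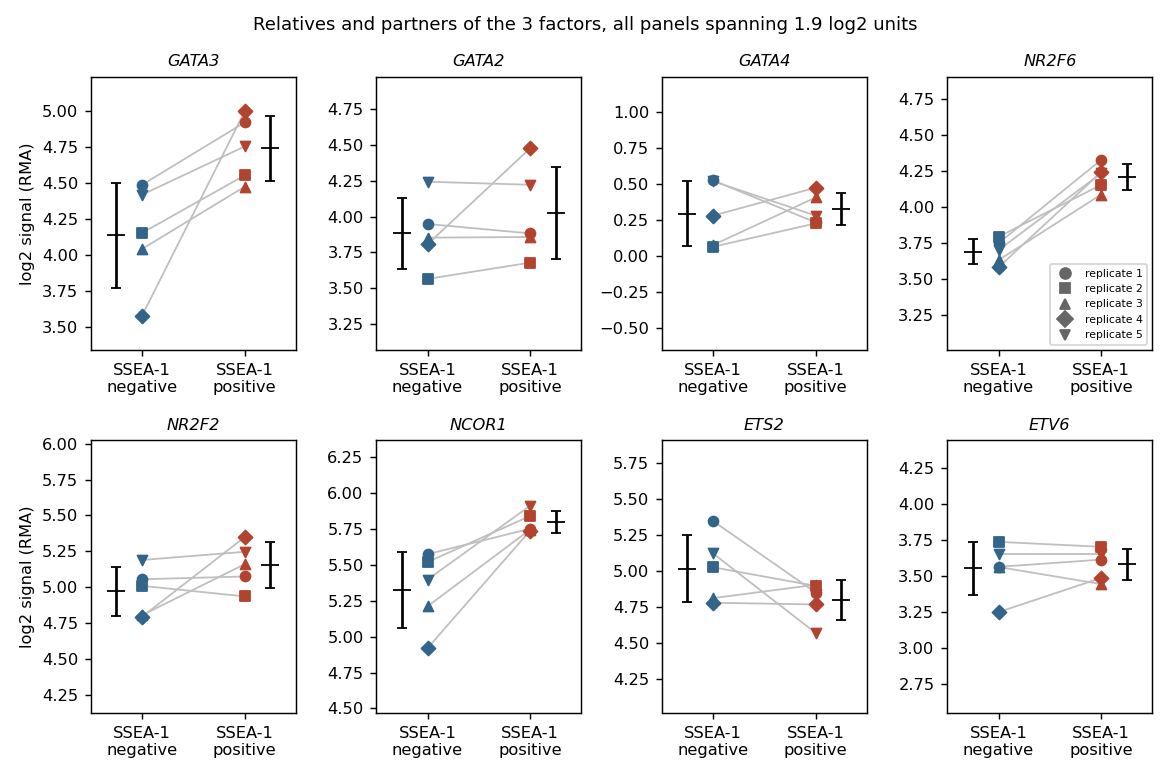
Log2 signal on each array of GATA3, GATA2 and GATA4, of NR2F6, NR2F2 and NCOR1, and of the ETS genes ETS2 and ETV6, drawn as for the 3 factors, with the mean and SD of each fraction. GATA3, NR2F6 and NCOR1 lie higher in the positive fraction along all lines, and no other gene shown rises or falls along all of its lines. NR2F2 rises along 4 lines and ETS2 along 1.

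ERG had no called relative among the 7 other ETS genes measured. ETS2, a broadly used ETS factor, read 4.80 ± 0.14 against 5.02 ± 0.23 (SD, n = 5 each; limma adjusted p = 0.293) on the brightest of 3 probe sets, and the others read 0.16 and 0.29 higher in the positive fraction, so its direction depended on the probe set. ETV5, a target of FGF signalling, read 0.14 higher (adjusted p = 0.305), and ELF3, an epithelial ETS factor, 0.07 higher near background (0.776). ETV6 read 3.58 against 3.55. SPI1, the myeloid ETS factor, lay below background on all 10 arrays. The list median was 0.03, and none of the 7 was at an unadjusted p under 0.05.

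Endothelial genes, the setting in which ERG is best known, were mostly dim and gave no call among 20 measured members, nor any at an unadjusted p under 0.05. CDH5, the vascular cadherin, the angiopoietin receptor TEK and the nitric oxide synthase NOS3 lay below background on all 10 arrays, and PECAM1 read 0.80 ± 0.23 against 0.83 ± 0.06 (SD, n = 5 each). Of the 8 measured endothelial markers, 4 lay above background on every array, and their summed signal on the linear scale ran from 10.9 to 11.5 in the positive and from 10.8 to 11.4 in the negative fraction. CDH5 and TEK were below background and KDR and TIE1 near it, so this sum had little room to move, and the part of endothelial cells in the ERG difference was not tested. ANGPT2, a vessel-remodelling ligand of TEK, read 1.29 ± 0.52 against 1.72 ± 0.47 (SD, n = 5 each; limma adjusted p = 0.392). KLF2, a flow-induced factor of endothelium, read -0.19 (limma adjusted p = 0.262), the thrombin receptor THBD 0.16 (0.269) and ENG, a TGF-beta coreceptor, 0.20 (0.311). The list median was 0.02.

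Lineage genes outside the 3 families gave 1 call. FOXP1, a forkhead factor of heart and lung, was the single call among 11 measured factors of cardiac and visceral mesoderm. Over all genes 7.39% passed in either direction, so that count says nothing particular to the list. FOXP1 read 5.58 ± 0.19 against 5.04 ± 0.09 (SD, n = 5 each). Its log2 difference was 0.54 ± 0.09 (SE, limma adjusted p = 0.00508), and the call held in all 15 leave-outs. HAND1 at 0.15, WT1 at 0.11 and MEF2D at 0.24 did not pass, at adjusted p of 0.297, 0.396 and 0.419, with HAND1 and WT1 near background. Of 19 endoderm genes none passed and 3 were at an unadjusted p under 0.05, namely EPCAM at 0.25, LAMC1 at 0.26 and CDH1 at 0.18, with EPCAM and CDH1 near background. DAB2, an endocytic adaptor of the primitive endoderm, depended on the probe set, with 0.21 on its brightest one (limma adjusted p = 0.287) and rises of 0.46 (0.00761) and 0.47 (0.0417) on the others. For EPCAM, LAMC1 and CDH1 the limma adjusted p was 0.105, 0.161 and 0.173. LAMC1, a laminin chain, passed without negative replicate 2 (0.0463). Its other probe sets, all above background, read 0.02, 0.11 and 0.04 without passing, and the mean over its probe sets was 0.11 (limma adjusted p = 0.454). The endoderm factor FOXA1 lay below background on all 10 arrays.

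Neural crest and patterning factors gave no call. Of 13 measured neural crest factors none was at an unadjusted p under 0.05. MITF, the pigment cell factor, read 0.15, DLX5 read -0.24 and SNAI1 read 0.22, with limma adjusted p of 0.322, 0.395 and 0.432. Of 7 limb, axial and mesenchymal factors 1 was at an unadjusted p under 0.05, PRRX1, a marker of limb mesenchyme, at 0.16 (adjusted p = 0.203). LHX9, near background, read 0.14 and HOXD10 read 0.14 (adjusted p = 0.366 and 0.525). Medians were -0.02 and 0.09 for these lists.

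**Figure D4:**
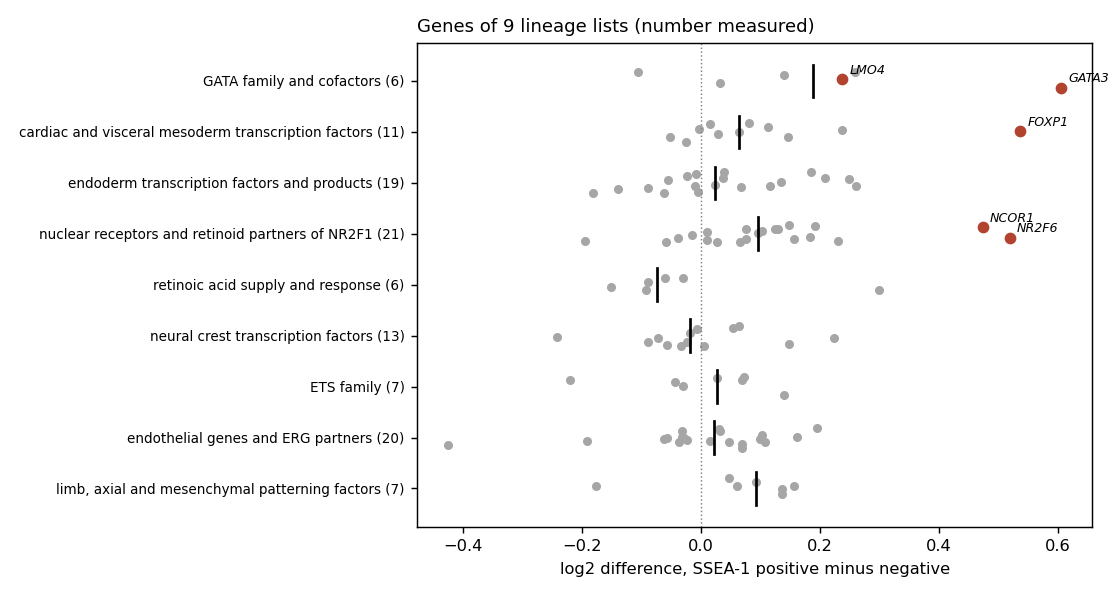
Log2 difference (positive minus negative) of every measured gene in 9 lineage lists, with the number measured in parentheses; red points passed limma at an adjusted p under 0.05, grey points did not, and black bars are list medians. The 5 red points, GATA3, LMO4, FOXP1, NR2F6 and NCOR1, all lie to the right of 0.

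Over the 9 lists, 5 of 110 measured genes passed and all 5 rose, where 7.39% of all genes passed in either direction. The share is no larger than that background. The count was 2 without positive replicate 1 or 5 and without negative replicate 3, and 3 without positive or negative replicate 4. Without both arrays of a replicate number it was 3 for replicates 1, 2 and 4 and 2 for replicates 3 and 5. With the poly-A covariate none of the 110 passed, where 12 probe sets passed in all. Under that covariate NR2F6 read 0.65 ± 0.13, NCOR1 0.69 ± 0.20, GATA3 0.99 ± 0.28, FOXP1 0.30 ± 0.16 and LMO4 0.17 ± 0.12 (SE), so among the 5 the FOXP1 difference was smaller and the GATA3 difference larger by over 1.5 times.

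Markers of other cell types gave no call in either direction. Of the 13 fibroblast markers 1 rose, COL1A2, a chain of type I collagen, by 1.19 on its brightest probe set. Its other probe set was dim and read 0.08 (limma adjusted p = 0.736). Over all genes 7.39% passed, or 14.3% with the replicate block, and nothing is read from the counts of these markers. With the replicate block, THY1, a surface glycoprotein, also rose, at 0.34 (limma adjusted p = 0.0146, against 0.0564 without the block), and POSTN, a matricellular protein, fell, at -0.59 (0.000737 against 0.0948). A further THY1 probe set passed without the block, at 0.89. The remaining one read -0.005 (limma adjusted p = 0.990) and lay above background on all 10 arrays, so the THY1 rise depended on the probe set. None of the 7 blood, 8 epithelial, 6 muscle and 6 neural markers passed limma, with 1, 4, 0 and 1 of them at an unadjusted p under 0.05. KRT19, a simple epithelial keratin that read 0.40 higher (adjusted p = 0.166), passed with the replicate block (0.0272). The defining leukocyte markers PTPRC and SPI1 lay below background on all 10 arrays, whereas HBB, a red cell globin, read 4.38 ± 0.16 against 4.54 ± 0.10 (SD, n = 5 each). The mean log2 level of the epithelial markers ran from 1.30 to 1.81 in the positive and from 1.21 to 1.81 in the negative fraction. Their median difference was 0.12, with 5 of the 8 reading higher in the positive fraction and 3 lower. The 4 at an unadjusted p under 0.05, EPCAM, CDH1, CLDN4 and KRT19, all read higher. The contractile gene ACTA2, which cultured fibroblasts also use, read 10.90 ± 0.10 against 11.01 ± 0.11. Their part in the differences of the 3 factors was not tested.

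The genes whose deviations from the fraction means were most like those of each factor were ranked over 5688 genes and 10 arrays, a measure that leaves out the difference between the fractions. For GATA6 they were GEMIN5, a subunit of the SMN complex, at r = 0.93, RBPJ, the DNA-binding effector of Notch signalling, at 0.90, the ubiquitin ligase CBLB at 0.88, RPRD1B at 0.86 and PHF12 at 0.85. CBLB was the one of the 15 genes named here that passed between the fractions, at 0.47 ± 0.09 (SE; limma adjusted p = 0.0128), and its fractions did not overlap. Over all genes 7.39% passed and 8.53% had fractions without overlap, so 1 call among the 15 says nothing particular to these genes. RBPJ read 0.24 higher (adjusted p = 0.0852), and GEMIN5 read -0.08 (0.797). The likeness of RPRD1B and PHF12 dropped to 0.57 and 0.54 without the 2 arrays where GATA6 deviated most, so it rested in part on those.

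For NR2F1 the most alike were MED20, a Mediator subunit, at r = 0.89, PREB at 0.87, CYP27A1, a sterol hydroxylase, at 0.86, PDE6D at 0.85 and ITIH1 at 0.84, the last of them near background. The largest difference between the fractions among these was that of PDE6D at -0.12, and none of the 5 passed limma. Without the 2 arrays where NR2F1 deviated most, r was 0.90 for MED20 and 0.79 for ITIH1. It dropped to 0.48 for PREB, 0.62 for PDE6D and 0.66 for CYP27A1, so these likenesses rested in part on those arrays, that of PREB the most. For ERG the most alike were PRKAG3 at r = 0.92, ACSL3, an acyl-CoA synthetase, at 0.91 and MAN1C1 at 0.88. After these came the complement regulator CD46 at 0.87 and RAB23, a small GTPase of hedgehog signalling, at 0.86. RAB23 also read lower in the positive fraction, at 4.47 ± 0.21 against 4.83 ± 0.15 (SD, n = 5 each), a log2 difference of -0.36 with a limma adjusted p of 0.0623. ACSL3 at -0.17 and CD46 at -0.07 read lower too, whereas PRKAG3 at 0.21 and MAN1C1 at 0.07 read higher, and none of these passed limma. PRKAG3 was dim, with means of 0.90 in the positive and 0.69 in the negative fraction. The 95th percentile of r over the 5688 genes was 0.52 for GATA6, 0.45 for NR2F1 and 0.54 for ERG, and values near 0.9 at the top of so long a ranking of 10 arrays carry no test.

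The differences of the 3 factors kept their direction in all 15 leave-outs, which lends them no support. The fractions of GATA6 and NR2F1 did not overlap, and ERG read lower in every pair. No leave-out could therefore turn GATA6 or NR2F1, and leaving out a pair could not turn ERG. GATA6 ranged from 0.76 without negative replicate 4 to 0.94 without both arrays of replicate 5. NR2F1 ranged from 0.30 without both arrays of replicate 2 to 0.43 without both of replicate 3, and ERG from -0.49 to -0.33. Repeated quantile normalization gave 0.91, 0.39 and -0.38 and cyclic loess 0.88, 0.37 and -0.40 for GATA6, NR2F1 and ERG. The replicate block left each value as it was and gave SEs of 0.09, 0.08 and 0.09. Among the 26 other settings run, those with the poly-A covariate were the ones that moved a difference by more than the SD within fractions, and they moved ERG furthest.

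**Figure D5:**
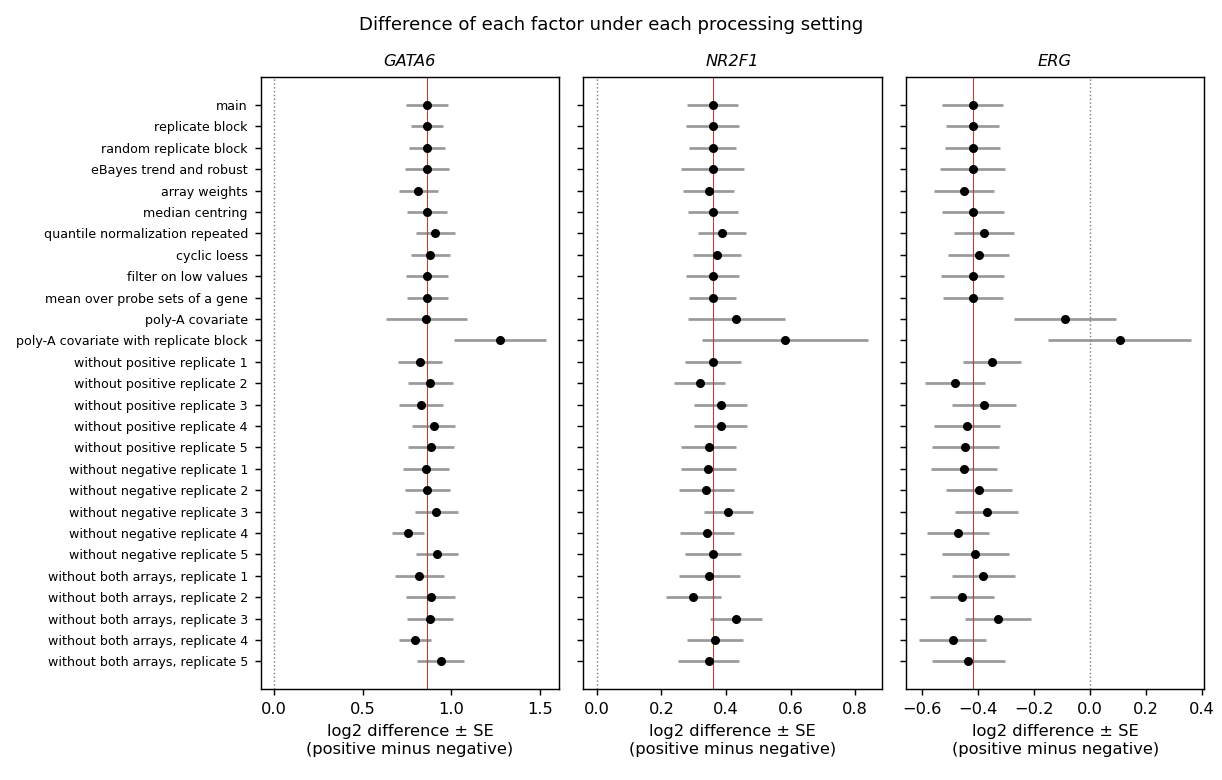
Log2 difference between the fractions (positive minus negative) of each factor under the reported fit (top) and 26 other settings, with SE bars; the red line marks the reported value and the dotted line 0. GATA6 and NR2F1 lie right of 0 in every setting, and ERG lies left of 0 in all except the poly-A covariate with the replicate block.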

How the data were processed

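The authors deposited log2 signals, 1 per probe set and array. RMA is the tool named by the submitters' processing notes, and its version and background correction were not given in the sources used here. Between 4.55% and 8.16% of values per array lay below 0, and the signals were used as deposited. Gene names came from the platform annotation, in which 10099 of 24123 had 1 symbol; 9989 matched a RefSeq gene table of Sscrofa11.1 by Entrez identifier, used for names only, and no symbol changed. A gene was read by its brightest probe set. Fractions were compared with limma 3.58.1 under R 4.3.3 (lmFit and eBayes, all probe sets, Benjamini-Hochberg, threshold 0.05), tested on simulated data. The background level was taken from 23 controls for absent sequences.

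The replicate numbers were treated as pairs, since by the series text the 5 replicates gave 5 fractions of either kind, and deviations of same-numbered arrays correlated at 0.212, 0.580, 0.353, 0.122 and 0.235. The block was an alternative, as were other scalings, weights, filters, the poly-A covariate and 15 leave-outs (10 single arrays and 5 pairs). The members and the 9 lineage lists, with 263 genes of which 110 were measured, were chosen with earlier results of these data known. Named were, per list, every gene past the threshold and up to 3 others with the smallest p, and per factor the 5 most alike genes. GATA4, ETV6, DAB2, ANGPT2 and cell type markers were named after their values were seen.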

Additional observations from a re-analysis of the deposited data

Results flagged for a closer look

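One array stood apart for NR2F1: negative replicate 3 read 2.05, while the other 4 negative arrays lay between 1.78 and 1.86, and it also gave the smallest pair difference. For CITED2, negative replicate 5 read 6.29, above the other 4 negative arrays, the nearest at 6.09. These were 2 of 102 groups of 5 arrays examined with Dixon's criterion, and chance flags about 1 in 20 groups.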

How the results depend on the processing

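With the poly-A covariate the ERG difference was -0.089, 12 probe sets passed and 0 genes of the lineage lists passed. With the replicate block beside it ERG turned to 0.11, GATA6 read 1.28 and NR2F1 0.58, with 4 probe sets and 0 list genes passing. The replicate block gave 2832 probe sets and the random replicate block 2561, against 1495, and 6 and 7 list genes against 5. Leave-outs gave 384 to 1834 probe sets and 2 to 6 list genes, GATA6 0.76 to 0.94, NR2F1 0.30 to 0.43, ERG -0.49 to -0.33 and the poly-A difference 0.69 to 0.89, against 1.24 without subtracting the hybridisation controls. In the other settings run, the 3 differences moved by less than the SD between replicates. With the replicate block CITED2, KRT19 and THY1 rose and POSTN fell beyond the calls without it, and no other gene of the lists changed its call. NR1H3 passed with the random block (0.0384) and also with array weights. Each factor had 1 probe set and each fraction 5 arrays, which limits what these data can show; the cause of the changes with the covariate was not tested.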
